A study of Mus musculus with 18 samples.

Results

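The cytosolic ribosomal protein genes described here are those whose symbol is Rpl or Rps followed by digits, with at most 1 of the letters a, l, x or y after them, or Rplp0, Rplp1 or Rplp2, in any of the tables of called genes. There were 41 of them among 2202 distinct genes listed in the 5 tables, 22 of the large subunit and 19 of the small subunit. All but Rps4l are protein-coding in GENCODE release M21, in which Rps4l is a transcribed processed pseudogene. That annotation holds 79 protein-coding genes of the same name pattern, so 39 of them had no entry in any table. Names with other endings, such as Rps27rt, Rps3a1 and Rpsa, and pseudogene names fell outside the rule and are given only where a result touches them.

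Each protein of the cytosolic ribosome is, as a rule, encoded by a single active gene, beside which the genome carries many inactive copies. Rps genes encode proteins of the small subunit, which reads the messenger RNA, and Rpl and Rplp genes those of the large subunit, which joins amino acids and carries the stalk for elongation factors. Their messengers begin with a run of pyrimidines at the cap, the terminal oligopyrimidine tract, through which the kinase mTOR controls their translation as a class. In lymphocytes, ribosome production rises when a resting cell is activated, and the Myc proteins drive it.

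All samples came from C57BL/6 mice, either wild type or Beclin 2 KO, the latter lacking a protein related to the autophagy regulator Beclin 1. Splenic T cells and splenic B cells came from mice aged 8 weeks of both genotypes and were unstimulated. Lymph nodes of either genotype and lymphoma tissue of the knockout were also sequenced, with no age given, so age and group cannot be told apart there. Each group held 2 samples, and nothing in the labels says that they came from separate animals, so a p-value here reflects no more than the scatter of these samples, technical scatter included. The labels do not say how the allele was made or how T and B cells were isolated. Of 18 samples in 9 groups, 14 samples in 7 groups entered the tables, and the macrophage samples were not analysed here.

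The tables gave each called gene 1 normalised read count per group, the authors' mean of 2 libraries, with their p-value and adjusted p-value. A fold change below is the ratio of the deposited means, first-named group over second. Because the means were printed with 10 or 15 digits, the whole reads of each library could be worked out for all members in the lymphoma comparisons and for 26 of 32 in knockout T cells. For the other 6 there, Rps29, Rps6, Rps9, Rpl32, Rps3 and Rpl18, several pairs of reads fitted and the only pair within 2-fold was taken. In wild-type T cells the mean of each member stands without its spread. Libraries carry no replicate number and are called by their size factor, the number by which reads were divided, which ran from 0.842 to 1.19 and is the only measure of depth these tables hold.

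In splenic T cells 32 members were lower in the knockout, where genes called lower were 0.676% of all tested, and none was higher. At a stricter adjusted p under 0.01 the count was 5. In splenic B cells and in lymph node no member was listed, with 1.24% and 0.475% of tested genes called. In lymphoma 7 members were higher than in knockout lymph node, where 0.700% of tested genes were called higher. Against wild-type lymph node 16 members were higher and 3 were lower, beside 3.34% and 4.04% of tested genes called in those directions. Members of both subunits took part in T cells, with 15 large-subunit and 17 small-subunit genes. Of the 41 members 28 were listed in 1 table, 9 in 2 and 4, namely Rps21, Rps28, Rps29 and Rpl37, in 3.

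**Figure D1:**
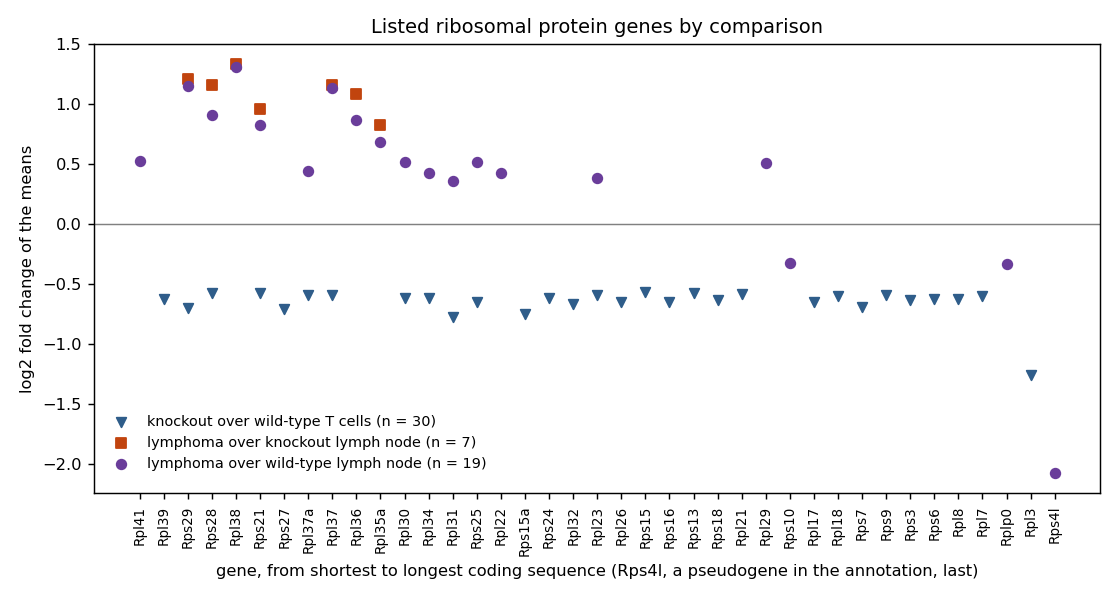
The log2 fold change of the means (vertical axis) for 39 of the listed genes, ordered by coding length along the horizontal axis, in knockout over wild-type T cells (triangles), lymphoma over knockout lymph node (squares) and lymphoma over wild-type lymph node (circles). The T cell values form a band between -0.57 and -0.77 with Rpl3 below it at -1.26, and the lymphoma values are highest among the genes of short coding length.

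The start of these messengers is shown for 4 members, because the tract at the start is the feature the class is known for and the members moved together. RefSeq promoter sequence on GRCm38.p6 was found for 28 of the 41 members. A C at the annotated start followed by at least 4 more C or T, read on the gene's own strand only, was present in 8 of these 28 members (28.6%) and in 813 of all 27025 genes with such a sequence (3.01%). An annotated start can be off by a few bases, and a run of at least 8 C or T overlapping the window from 10 bases before to 20 bases after it was found in 14 of the 28 members (50%) and in 19.2% of all genes. Each line below gives 50 bases before the annotated start and the first 20 bases of the messenger, with capitals marking the pyrimidine tract that opens it. Rps6 and Rps18 were among the genes lower in knockout T cells, and Rpl38 and Rpl35a among those higher in lymphoma. They lie at chr4:86857348-86857417 on the minus strand, chr17:33955646-33955715 on the minus strand, chr11:114668530-114668599 on the plus strand and chr16:33056432-33056501 on the plus strand.
Rps6: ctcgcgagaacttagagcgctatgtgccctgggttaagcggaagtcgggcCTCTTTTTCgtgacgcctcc
Rps18: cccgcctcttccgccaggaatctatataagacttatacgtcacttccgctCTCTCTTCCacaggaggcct
Rpl38: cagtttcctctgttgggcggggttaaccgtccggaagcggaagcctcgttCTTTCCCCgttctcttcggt
Rpl35a: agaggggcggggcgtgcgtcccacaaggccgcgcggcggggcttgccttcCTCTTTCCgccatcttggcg
The tract at the start was found in 5 of 22 T cell members with a sequence and in 3 of 12 members higher in lymphoma than in wild-type lymph node, so it was seen in members of both comparisons.

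The T cell comparison asks how Beclin 2 loss changes unstimulated splenic T cells. The authors' deposited table listed 587 of 25015 tested genes there. The 32 members were 18.9% of the 169 genes listed as lower, and 40.5% of the 79 annotated genes of this kind. Their median log2 fold change was -0.62, against -1.01 for all genes listed as lower and 1.14 for all listed genes. Without Rpl3 the 31 others spanned -0.57 to -0.77, a 1.48-fold to 1.71-fold difference, with an SD over genes of 0.0509 on the log2 scale. The end of this band is set by what could be called: Rps15, at -0.57, had the smallest fall of any gene listed as lower, so members that moved a little less would have no entry.

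**Figure D2:**
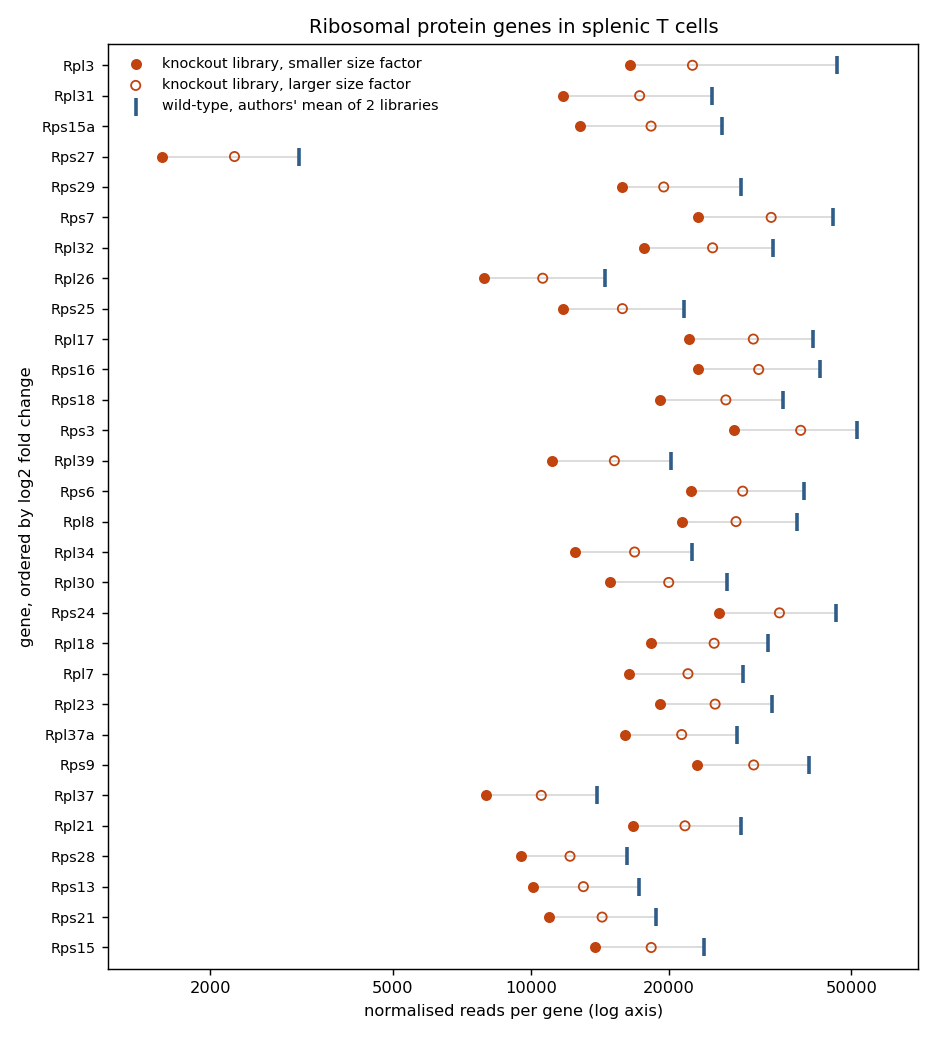
Normalised reads (horizontal log axis) of 30 of the listed genes in splenic T cells, ordered by log2 fold change, with filled and open circles for the knockout libraries of the smaller and the larger size factor and a bar for the authors' wild-type mean of 2 libraries. In each row the filled circle is lowest, the open circle lies between, and the wild-type mean is highest.

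Rpl3, whose protein reaches into the peptidyl transferase centre, had the lowest adjusted p and the largest fall. It had 16471 and 22519 normalised reads in the knockout libraries against a wild-type mean of 46572, a log2 fold change of -1.26 with an adjusted p of 3.3e-11 in the authors' deposited table. The higher knockout library reached 0.484 of the wild-type mean. Part of its reads may have been counted on a near-identical copy, described further on.

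Rps29, a small zinc-binding protein of the small subunit, had 15840 and 19493 normalised reads in the knockout and a mean of 28727 in the wild type. Its log2 fold change was -0.70, with an adjusted p of 0.0021 in the authors' deposited table. Rps15a, another small-subunit protein, had 12805 and 18293 normalised reads against a mean of 26080, at -0.75 with an adjusted p of 0.0082 in that table. The knockout libraries of Rps15a were farther apart than those of Rps29, and in both genes the higher one was well under the wild-type mean.

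Among the proteins around the exit of the nascent chain, Rpl26 had 7917 and 10620 normalised reads against 14546, a log2 fold change of -0.65 with an adjusted p of 0.0081 in the authors' deposited table. Rpl31, which lines the rim of that exit, had the largest fall after Rpl3, with 11749 and 17274 normalised reads against 24814, at -0.77 and an adjusted p of 0.013 in the authors' deposited table. Rpl17 and Rpl39, which stand at the same tunnel, had log2 fold changes of -0.65 and -0.62. Leaving Rpl3 aside, Rpl31 marked the lower edge of the band and Rpl39 stood near its middle.

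Rps25, a small-subunit protein known from work on internal ribosome entry, had 11750 and 15843 normalised reads against 21608, and Rpl8, a core protein of the large subunit, 21398 and 28020 against 37973. Their log2 fold changes were -0.65 and -0.62, with adjusted p-values of 0.0092 and 0.012 in the authors' deposited table. Rps6, the protein that S6 kinases phosphorylate below mTOR, had 22305 and 28973 normalised reads against 39443, and fell by 0.62 on the log2 scale. The log2 fold change was -0.63 for Rps3, at the entry of the messenger, -0.57 for Rps15, near the decoding site, and -0.59 for Rpl23, which in human cells also binds the p53 regulator MDM2.

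Rps27 had 1588 and 2427 whole reads in the knockout libraries, 1568 and 2261 after normalisation, against a wild-type mean of 3120. Its log2 fold change was -0.70, with an adjusted p of 0.0258 in the authors' deposited table. Its wild-type reads fit 3 pairs and were therefore not read as a spread. Across the 32 members the wild-type libraries would have to differ by at least 1.60-fold for the lower one to reach the higher knockout library, and whether they did is not known.

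Other members with an entry included Rps7, Rpl32, Rps16, Rps18, Rpl34, Rpl30, Rps24, Rpl18, Rpl7, Rpl37a, Rps9, Rpl37, Rpl21, Rps28, Rps13 and Rps21, at -0.69 for Rps7 to -0.57 for Rps21. Their adjusted p-values in the authors' deposited table ran from 0.0169 for Rpl30 to 0.0486 for Rpl18. Rps24 and Rps7 are among the genes mutated in human Diamond-Blackfan anaemia, an inherited failure of red cell production.

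The knockout libraries differed from each other in 1 direction: in each of the 26 members with a single solution the library of the smaller size factor was lower. Its normalised reads were 0.680 to 0.781 of those of the other library, median 0.742, while the median for 312 other listed genes was 0.989. With the 6 others included, whose pairs were chosen for lying within 2-fold, the values below are for 32 members. The higher knockout library reached 0.749 of the wild-type mean at the median member and the lower one 0.555. With the lower library left out, the median log2 fold change of the members would be -0.42, and with the higher left out -0.85.

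Markers of other cells moved in the same comparison, in which 418 of 25015 tested genes were called higher and 169 lower. Sizes of gene lists here and below count names. Igj (plasma cell), Emr1 (macrophage) and Gnb2l1 (other terminal oligopyrimidine messengers) also stand there under the newer names Jchain, Adgre1 and Rack1. Of 18 plasma cell markers 11 were listed, each higher in the knockout, with summed means of 228449 in the knockout and 40695 in the wild type. Over the 8 of them with reads in every library, the sums were 13042 and 13478 in the knockout libraries and 5288 and 3740 in the wild-type libraries. Of 22 monocyte and macrophage markers 9 were higher and 1 lower, with sums of 17093 and 13829 against 7951 and 3686, and 7 of 16 neutrophil markers were higher, with sums of 1426 and 2016 against 350 and 202. Lower in the knockout were 4 of 17 natural killer cell markers, with sums of 988 and 1008 against 2156 and 2049, and 3 of 13 naive T cell markers, with sums of 1886 and 2240 against 3166 and 3743. Of 16 B cell markers 1 was higher. None of these listed markers was at 0 in a group. Of 18 T cell markers 2 were lower and the others had no entry. Of these 2, Cd8b1 had means of 4282 and 7028, and Trbc1 means of 3353 and 5032, in knockout and wild type. The part of these cells in the ribosomal protein result was not tested. In bulk samples, fewer cells of a type and less RNA per cell cannot be told apart.

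The rest of the translation machinery gave few calls in T cells. None of 46 elongation and initiation factors, none of 78 mitochondrial ribosomal proteins and none of 39 ribosome biogenesis genes was listed. Of all genes tested 587 of 25015 were listed, a share at which lists of this size hold few calls or none. These lists are therefore not shown to differ from other genes. Of 18 other messengers with a terminal oligopyrimidine tract, 2 were listed, both noncoding hosts of small nucleolar RNAs. Gas5 had a mean of 1712 in the knockout and 7398 in the wild type, a log2 fold change of -2.11 with an adjusted p of 2.39e-29 in the authors' deposited table. Snhg1 fell by 0.68 on the log2 scale. Outside the naming rule, Rps3a1, a small-subunit protein, had 29549 and 41809 whole reads in the knockout libraries and a log2 fold change of -0.73. Genes without an entry may have moved by less than could be called.

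Splenic B cells gave no member among 298 genes called of 23957 tested (1.24%), and lymph node none among 105 of 22105 (0.475%). These counts are of the authors' DESeq calls at an adjusted p under 0.05, and values of genes above it were not analysed here. Gas5 was lower in both, with a log2 fold change of -2.20 in B cells and -2.27 in lymph node, and adjusted p-values of 2.11e-25 and 1.72e-28 in the authors' deposited table. In B cells its whole reads were 1126 and 1245 in the knockout against 5538 and 7594, and in lymph node 812 and 663 against 3224 and 3673. Snhg1 was lower in B cells as well, at -0.81. A fall of Gas5 stood beside listed ribosomal protein genes in T cells and beside none in B cells and lymph node. Gas5 lies on chromosome 1 at 161034422 to 161038539. Becn2, the gene of Beclin 2, lies on the same chromosome at 175920329 to 175922225. Whether the fall of Gas5 goes with this position was not tested. Gas5 was also lower in lymphoma than in wild-type lymph node, at -2.09, a comparison that shares the wild-type lymph node libraries.

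The Rpl3 result has to be read with its copy. Rpl3 lies on chromosome 15 at 80077791 to 80091868, minus strand, and Rpl3-ps1, a processed pseudogene, on chromosome X at 13202571 to 13203780, plus strand (GRCm38). Over the 1210 bases of the copy the transcripts differ at 2 positions and share an unbroken run of 728 bases, an identity of 99.8%. The stretches around both differences are shown because, within the part the transcripts share, only reads crossing them can tell the genes apart. The Rpl3 transcript of 1351 bases also has ends that the copy lacks. They cover transcript bases 107 to 166 and 836 to 895 of Rpl3 and bases 28 to 87 and 757 to 816 of the copy, with the differing base in capitals.
Rpl3: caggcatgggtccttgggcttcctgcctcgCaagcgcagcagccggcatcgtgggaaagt
Rpl3-ps1: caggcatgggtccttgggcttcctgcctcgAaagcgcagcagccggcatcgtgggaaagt
Rpl3: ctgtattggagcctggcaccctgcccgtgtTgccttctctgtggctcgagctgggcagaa
Rpl3-ps1: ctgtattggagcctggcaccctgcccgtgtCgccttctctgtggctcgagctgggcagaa

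Rpl3-ps1 moved opposite to Rpl3. In T cells it had 6213 and 8596 whole reads in the knockout against 197 and 243 in the wild type, a 31.2-fold difference with an adjusted p of 7.45e-26 in the authors' deposited table. In lymph node it had 2707 and 3297 reads against 322 and 427, 7.56-fold higher in the knockout, and in lymphoma 8431 and 4819, 15.9-fold above the same wild-type nodes. The knockout and wild-type libraries were far apart in each comparison. Rpl3 itself was listed in neither of the last 2.

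In T cells the copy held 26.6% of the reads of the pair in the knockout and 0.484% in the wild type. The sum of the pair was 26567 in the knockout and 46798 in the wild type, a log2 ratio of -0.82, in place of -1.26 for Rpl3 alone. With the copy added, Rpl3 lay near the other members, just beyond Rpl31. How the authors' counting divided reads between the 2 loci is not given in the sources used here, so the values of Rpl3 and of the copy are uncertain one by one.

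**Figure D3:**
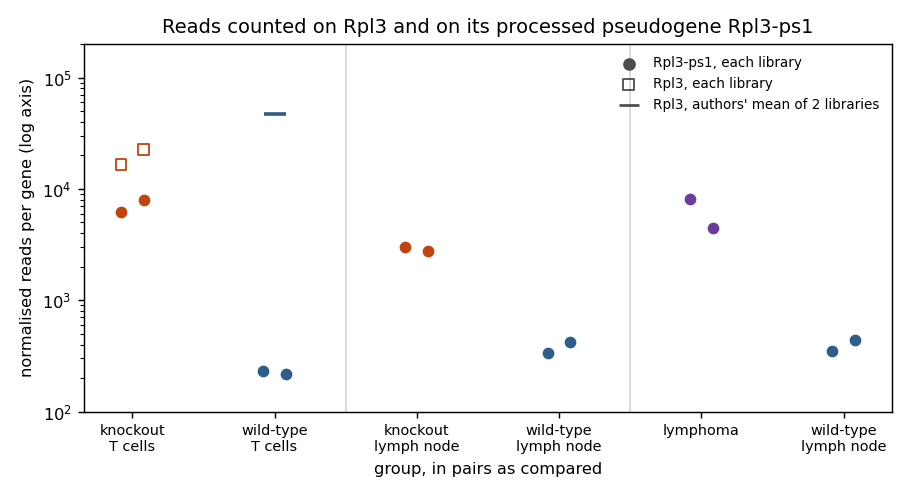
Normalised reads (vertical log axis) counted on Rpl3-ps1 in each library (filled circles) and on Rpl3 in knockout T cell libraries (open squares) or as the authors' wild-type mean (bar), by group along the horizontal axis. Rpl3-ps1 stands at 6136 and 8008 in knockout T cells and at 234 and 219 in wild-type T cells, while Rpl3 is lower in the knockout.

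Other members share sequence as well. Rps27 and the retrogene Rps27rt on chromosome 9 are identical over 341 of the 345 bases of the Rps27 transcript. In T cells 91.1% of the knockout reads of that pair and 91.2% of the wild-type reads were counted on Rps27rt, at a log2 fold change of -0.72, and the sum of the pair stood at -0.72 as well. Of the 40 coding members with an entry, 31 have at least 1 pseudogene named after them in the annotation, up to 24 for Rpl31, and copies carried under predicted-gene names were not counted. The 8 T cell members with none, Rps28, Rps21, Rpl37a, Rpl37, Rpl23, Rps9, Rps3 and Rpl8, had a median log2 fold change of -0.59 and ran from -0.57 to -0.63. The 24 with one had a median of -0.63.

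The lymphoma comparisons set tumour tissue of knockout mice beside lymph node of each genotype. Against knockout lymph node the authors' deposited table listed 418 of 23565 tested genes; 165 of these were higher in lymphoma. The members listed were Rpl38, Rps29, Rpl37, Rps28, Rpl36, Rps21 and Rpl35a, all 7 higher, with a median log2 fold change of 1.16 against 1.48 for all genes listed as higher. Against wild-type lymph node 1630 of 22086 genes were listed, 737 higher and 893 lower. The 16 members higher there had a median of 0.52, against 1.06 for all genes listed as higher. The same 7 were among them. Both comparisons use the same lymphoma libraries, so the values are set side by side and are not independent. A call already requires a difference between the groups, so libraries without overlap are likely for any listed gene. The share of all listed genes without overlap was not worked out.

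**Figure D4:**
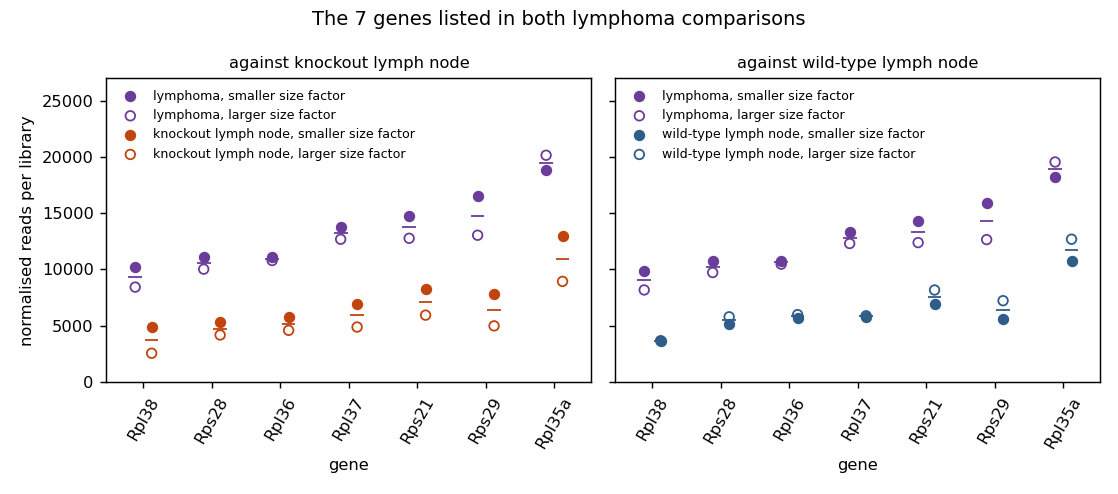
Normalised reads per library (vertical axis, from 0) of the 7 genes listed in both lymphoma comparisons, in lymphoma and knockout lymph node (left) and in lymphoma and wild-type lymph node (right), with filled and open circles for the libraries of the smaller and the larger size factor and short lines for the means. Both lymphoma libraries lie above both lymph node libraries for each gene in each panel, and the knockout lymph node library of the smaller size factor is the higher of its pair throughout.

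Rpl38, a large-subunit protein whose loss in mice disturbs the body plan, rose most. It had 10208 and 8430 normalised reads in lymphoma against 4862 and 2544 in knockout lymph node, a log2 fold change of 1.33 with an adjusted p of 0.0037 in the authors' deposited table. Against wild-type lymph node, at 3640 and 3660, the value was 1.31 with an adjusted p of 4.68e-09 in that table. The wild-type node libraries nearly coincided, while the knockout node libraries were 1.91-fold apart.

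Rps29 had 16496 and 13049 normalised reads in lymphoma against 7823 and 4979 in knockout lymph node, at 1.21. Against wild-type lymph node, at 5626 and 7222, the log2 fold change was 1.16. The adjusted p-values in the authors' deposited table were 0.0065 and 0.00039. Groups did not overlap in either comparison.

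Rpl37, a zinc-binding protein of the large subunit, had 13746 and 12689 normalised reads in lymphoma against 6960 and 4877 in knockout lymph node, a log2 fold change of 1.16. Against wild-type lymph node, at 5765 and 5876, it was 1.14, with the lowest adjusted p of the members there, 1.23e-19 in the authors' deposited table. The lymph node libraries of both genotypes lay well below each lymphoma library.

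Rps28, which sits where the messenger leaves the small subunit, had 11128 and 10029 normalised reads in lymphoma against 5306 and 4170 in knockout lymph node, at 1.16 with an adjusted p of 4.17e-09 in the authors' deposited table. Against wild-type lymph node, at 5148 and 5787, it was 0.91. Rpl36, a large-subunit protein, had 11138 and 10797 against 5757 and 4584, at 1.08, and the value against wild-type lymph node, at 5680 and 5980, was 0.87. The adjusted p of Rpl36 was 4.81e-08 against knockout and 3.45e-11 against wild-type lymph node in the authors' deposited tables, and no lymph node library of either gene reached a lymphoma library.

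Rps21 had 14795 and 12774 normalised reads in lymphoma against 8258 and 5936 in knockout lymph node, at 0.96, and 0.83 against wild-type lymph node, at 6894 and 8172. Rpl35a, mutated in some people with Diamond-Blackfan anaemia, had 18848 and 20167 against 13010 and 8938, at 0.83, and 0.69 against wild-type lymph node, at 10780 and 12692. These were the smallest changes of the 7, and here too no lymph node library reached a lymphoma library, as is likely for called genes.

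Listed against wild-type lymph node alone were 12 members. Higher in lymphoma were Rpl41, Rps25, Rpl30, Rpl29, Rpl37a, Rpl34, Rpl22, Rpl23 and Rpl31, at 0.53 for Rpl41 to 0.36 for Rpl31. Rpl30 had 24650 and 26601 normalised reads against 16626 and 19226, and Rps25 had 18652 and 19461 against 12568 and 14031, both at 0.52. Rpl22, whose loss in mice arrests part of T cell development, had 11024 and 11702 against 7865 and 9062, at 0.43. For the 16 higher members the lowest lymphoma library was 1.14 to 2.23 times the highest wild-type node library.

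Rpl34 had 20195 and 20556 normalised reads in lymphoma against 13472 and 16809, and Rpl37a 22523 and 20632 against 15162 and 16528. Rpl23 had 30262 and 31350 against 22294 and 24990, and Rpl31 17440 and 19082 against 13118 and 15287. Whether these 4 also differed from knockout lymph node was not analysed here, since that table gives no value for them.

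Lower in lymphoma were Rplp0, Rps10 and Rps4l. Rplp0, the base of the ribosomal stalk, had 47088 and 49890 normalised reads against 59982 and 62061, a log2 fold change of -0.33 with an adjusted p of 0.0363 in the authors' deposited table. Rps10, at the entry of the messenger, had 13858 and 15586 against 17611 and 19301, also at -0.33 with an adjusted p of 0.0495 there. The fall of Rps10 was the smallest of any gene listed as lower in that table. Rps4l, the pseudogene, had 33 and 50 whole reads in lymphoma against 162 and 147, at -2.07 with an adjusted p of 1.23e-04 in the authors' deposited table.

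Most members higher in lymphoma have short coding sequences. Of the 79 annotated genes 20 have a coding sequence of at most 360 bases, a limit chosen after the values were seen. Among these 20, 7 were higher than in knockout lymph node and 11 higher than in wild-type lymph node. Among the 59 longer ones, none was listed against knockout lymph node, and against wild-type lymph node 5 were higher and 2 lower. The 7 genes common to both comparisons range from 168 bases for Rps29 to 330 for Rpl35a, and only 14 of the 79 annotated genes are 330 bases or shorter.

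**Figure D5:**
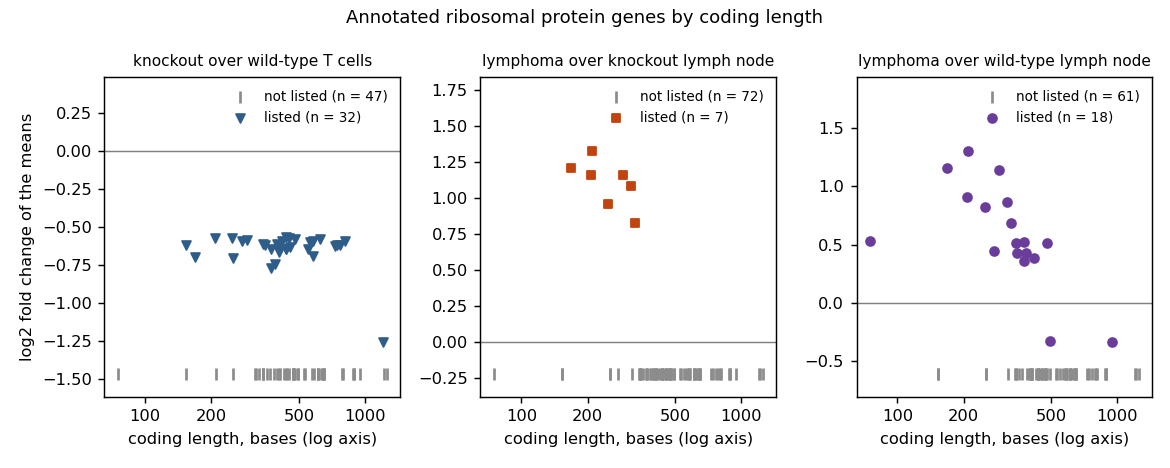
The log2 fold change of the means (vertical axis) against coding length in bases (horizontal log axis) for the 79 annotated genes in 3 comparisons, with grey ticks at the bottom of each panel for genes without an entry, which have no value. The listed genes of the T cell panel, cut at the smallest fall that was called, lie in a narrow band across lengths apart from Rpl3. In the lymphoma panels listed genes with shorter coding sequences have the higher values.

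Over the 18 coding members listed against wild-type lymph node, log2 fold change and coding length had a Spearman rho of -0.82 and a Pearson r of -0.62 with log2 length. Over the 7 listed against knockout lymph node the values were -0.68 and -0.65. In T cells, over the 31 members without Rpl3, they were 0.08 and 0.13. These are descriptions across genes that share libraries, and genes are not replicates. Only listed genes have a value in any comparison. The T cell values are cut at -0.57, the smallest fall listed, and their narrow range leaves little room for a relation with length. The T cell and lymphoma coefficients therefore cannot be set against each other. Among other protein-coding genes listed against wild-type lymph node, 26 of 59 with a coding sequence of at most 360 bases were higher (44.1%), as were 139 of 460 from 361 to 1000 bases (30.2%) and 418 of 905 beyond that (46.2%). Against knockout lymph node the same shares were 12 of 20 (60%), 46 of 113 (40.7%) and 59 of 233 (25.3%). These shares are over listed genes, unlike the counts of members over annotated genes given above. Over listed members, 11 of 11 with at most 360 bases and 5 of 7 from 361 to 1000 bases were higher than in wild-type lymph node. Against knockout lymph node 7 of 7 listed members, all with at most 360 bases, were higher.

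Of the members lower in knockout T cells, 10 were listed in the lymphoma comparison with wild-type lymph node, each of them higher there: Rpl23, Rpl30, Rpl31, Rpl34, Rpl37, Rpl37a, Rps21, Rps25, Rps28 and Rps29. They were 31.3% of the T cell list and 52.6% of the lymphoma list. The 52.6% stands beside 40.5% of the 79 annotated genes that were on the T cell list, and the overlap was not tested. Of the 19 members on that lymphoma list 16 were higher, so the shared direction was largely set beforehand. In T cells their log2 fold changes ran from -0.57 for Rps21 to -0.77 for Rpl31, and none of them left the band of the other members. Rps21 had 10971 and 14308 normalised reads in knockout T cells against a mean of 18795, Rpl37 7978 and 10544 against 13931, and Rps28 9517 and 12179 against 16179. Rpl23 had 19177 and 25228 against 33527, Rpl30 14901 and 19987 against 26719, Rpl34 12493 and 16841 against 22510, and Rpl37a 16027 and 21331 against 28189. T cells and lymphoma share no samples, so these are separate measurements of the same genes in different material.

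Rps27rt, the Rps27 retrogene, was higher in lymphoma too, with 28519 and 27093 whole reads against 11842 and 12055 in knockout and 10089 and 13291 in wild-type lymph node, log2 fold changes of 1.14 and 1.09. Rps27 had no entry in either lymphoma table. Rpsa, a small-subunit protein that is also known as a laminin receptor, was lower than in wild-type lymph node, at -0.53, with 48496 and 55664 reads against 61862 and 72050. The pseudogene Rps6-ps4 was lower in both lymphoma comparisons, at -1.14 and -1.13.

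Counts for the wider machinery stand beside 1630 of 22086 tested genes listed against wild-type lymph node and 418 of 23565 against knockout lymph node. At such shares small lists hold a few calls or none. Against wild-type lymph node 3 of 46 elongation and initiation factors were listed, all lower: Eif3k at -0.70, Eef1g at -0.45 and Eef1b2 at -0.38. None of 78 mitochondrial ribosomal proteins or 39 ribosome biogenesis genes was listed in either lymphoma table. Of 90 subunits of oxidative phosphorylation 4 were higher and 6 lower than in wild-type lymph node, and 1, Ndufa3, was higher than in knockout lymph node, at 1.31. In T cells Cox7a2l was lower, at -0.79, and Cox6a2 higher, at 2.04. Of 20 aminoacyl-tRNA synthetases, Gars was lower than in wild-type lymph node, at -0.45. Of 19 genes of mTOR and Myc control, Rps6kb1, an S6 kinase, at 0.58, and Tsc1, a brake on mTOR, at 0.71, were higher than in wild-type lymph node and Mxd1, a Myc antagonist, was lower at -1.18. Mycn was lower than in knockout lymph node, at -3.26 with 7 and 10 reads against 72 and 83. Of 12 p53 targets, Trp53inp1 was higher in both comparisons, at 0.71 and 0.92, and against wild-type lymph node Zmat3 was higher at 0.62 and Cdkn1a and Phlda3 lower at -0.94 and -0.87.

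Markers of other cells were listed in the lymphoma comparisons as well. Of 23565 genes tested against knockout lymph node 165 were called higher and 253 lower. Of 22086 tested against wild-type lymph node 737 were called higher and 893 lower. Of 16 salivary gland markers 9 were higher, with summed normalised reads of 596301 and 242029 in the lymphoma libraries against 425 and 7615 in knockout lymph node, and of 576843 and 234788 against 30171 and 11244 in wild-type lymph node. The lymphoma libraries were 2.46-fold apart in this sum and 1.03-fold to 1.26-fold apart in the 7 members. All listed plasma cell markers were higher, 11 and 14 of 18, with sums of 300506 and 323237 against 154552 and 150395 in knockout lymph node. Of 22 monocyte and macrophage markers 7 were lower than in knockout lymph node and 8 lower and 1 higher than in wild-type lymph node. Of 17 endothelial and stromal markers 5 were lower in each, and of 16 B cell markers 2 were higher and 4 lower than in wild-type lymph node. Of 16 neutrophil markers 7 were lower than in knockout lymph node, with sums of 49 and 422 in the lymphoma libraries against 2094 and 1972, and 1 was lower than in wild-type lymph node. In the comparison with wild-type lymph node, 2 of 18 T cell markers were higher and 5 lower, 1 of 13 naive T cell markers was higher and 5 lower, and 2 of 17 natural killer cell markers were higher and 6 lower. Against knockout lymph node 1 naive T cell marker was lower and 1 natural killer cell marker higher. Among these lists, 1 salivary gland marker listed against knockout lymph node was at 0 in a group. The part of these cells in the ribosomal protein values was not tested.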

How the data were processed

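The deposited tables held polyadenylated-RNA sequencing results for 5 comparisons. The submitters' processing notes name CASAVA 1.8, DESeq without a version and GRCm38 (mm10), and the aligner, counter, strand setting and annotation release are not given in the sources used here. Per the file headers, the authors gave the signal of each gene as a mean normalised read count per group, a log2 fold change, a p-value and an adjusted p-value, deposited for called genes only. Rows without values, 39 in B cells, were left out. Fold changes were recomputed from the means.

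Whole reads per library were worked out from the printed digits, a procedure that was tested on simulated data, in which 6074 of 6076 means were solved, all rightly. The simulated size factors were drawn at random and the scatter between libraries was small. That rate therefore does not describe wild-type T cells, where 512 of 587 genes and 0 of 32 members had a single fitting pair. For 430 of 430 genes listed in 2 tables the shared group gave the same reads. The shared groups were lymphoma and lymph node of both genotypes, so T and B cell reads had no such check. Where several pairs fitted, a member took the only pair within a 2-fold ratio (6 members in knockout T cells). No test was added. The number of genes tested came from p, its rank and the adjusted p. Coding lengths came from GENCODE release M21 and local alignments from Biopython 1.88. The members, the gene lists and the rule for named genes (the 6 lowest adjusted p and 3 largest changes per comparison, members in more than 1 table, and up to 4 genes per list) were chosen with earlier results of these data known. Other genes were named after their values were seen. Alternatives were a stricter adjusted p, a minimum fold, no names ending in l, 1 added to means, each library left out and size factors of 1. Some genes that these rules give are counted but not reported here by name.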

Additional observations from a re-analysis of the deposited data

How the results depend on the processing

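With an adjusted p under 0.01 the T cell count fell from 32 to 5, all lower, and with a difference of at least 1.5-fold the count against wild-type lymph node fell from 19 to 8. Size factors set to 1 moved the median of the 19 members against wild-type lymph node from 0.52 to 0.68 and shifted all genes listed there by 0.17 (median), so differences of that size rest on the scaling; Rplp0 and Rps10 then stood at -0.16 each. No member of either lymphoma table changed direction at size factors of 1. In T cells, where the wild-type reads are known within limits only, the 32 members stayed lower, between -1.34 and -0.25. Other counts stayed within 1.5 times, and adding 1 to both means left the medians in place. Leaving out 1 library at a time gave medians of -0.85 to -0.42 in T cells, 0.93 to 1.34 against knockout lymph node and 0.41 to 0.60 against wild-type lymph node. Over 35 values of named members, 134 alternative values gave 0 changes of direction and 9 moves beyond the spread between libraries. Of these, 8 came from size factors of 1 against wild-type lymph node. The other, added after the data were seen, was Rpl3 with its copy, at -0.82. That spread was the SD of the values with each library of a group left out in turn. With libraries at most 1.91-fold apart, leaving 1 out could not count as a move. Nor could it change a direction. No lymphoma library of a member overlapped the lymph node libraries, and both knockout T cell libraries lay under the wild-type mean of each member.

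No paired analysis was possible because the tables give 1 mean per group and no column carries a replicate number. Leaving out a wild-type T cell library, or setting size factors to 1 for the T cell median, was not run, because the reads of those libraries fit several pairs. Medians in B cells and lymph node had no member. Calls could not be tested again without the uncalled genes, and a member without an entry is not shown to be unchanged.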
